A study of Mus musculus with 13 samples.

Results

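The genes described here are 9 cardiac transcription factors and cofactors, Nkx2-5, Hand1, Hand2, Tbx5, Tbx20, Isl1, Mef2c, Smarcd3 and Myocd, followed through the loss of LMO2 and of TAL1 in mouse haemangioblasts. They were picked by gene symbol, 9 of the 45250 genes in the deposited RNAseq table, and each symbol matched 1 row that carries no other gene. Mouse embryonic stem (ES) cells were differentiated through embryoid bodies, and Flk-1+ cells, in which the haemangioblast is found, were isolated with magnetic beads against Flk-1. Some of these cells were cultured further, and HE1, the early haemogenic endothelium, was sorted as Kit+, Tie2+ and CD41-. The RNAseq data hold 3 libraries each of Flk-1+ cells from the WT line CCB, from Lmo2-/- and from Tal1-/- ES cells, and 2 libraries each of HE1 from WT and Lmo2-/-. No HE1 libraries of Tal1-/- are used here.

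The heart arises from mesoderm that expresses Flk-1, as the haemangioblast does, and the cardiac factors act there as a network. NKX2-5, the T-box factors TBX5 and TBX20, the basic helix-loop-helix factors HAND1 and HAND2, and the MADS-box factor MEF2C bind DNA at heart genes, often together with GATA factors. ISL1 marks the progenitors of the second heart field. SMARCD3, also called BAF60C, is a subunit of the BAF chromatin remodelling complex that brings it to cardiac factors, and myocardin (Myocd) is a coactivator of SRF at genes of cardiac and smooth muscle. TAL1 and LMO2 act in 1 DNA-bound complex that drives the blood and endothelial programme, and TAL1 is known to hold back the cardiac programme in this mesoderm. The comparison of both knock-outs asks whether the cardiac factors answer to the loss of either partner in the same way.

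The paper names 1 ES cell line per genotype, so a difference between genotypes cannot be told apart from a difference between lines. The study's methods describe the libraries as independently prepared from biological replicates, and do not say whether each came from its own differentiation. In bulk RNA, fewer cells of a type and less RNA per cell cannot be told apart. Values are FPKM, fragments scaled to transcript length and to the size of the library. The study's methods give a minimum number of reads that every library reached, but the fragments behind a single value are not given. Differences are on the log2(FPKM + 1) scale from 1 limma fit across the 13 libraries and 13802 tested genes, and they understate the change of weakly expressed genes. A gene was called where its Benjamini-Hochberg adjusted p was below 0.05 and its mean FPKM above 10 in a group compared.

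In Flk-1+ cells Lmo2 was at 21.6 to 30.8 FPKM in WT, 2.17 to 6.48 in Lmo2-/- and 0 to 7.58 in Tal1-/-. Tal1 was at 22 to 37.4 FPKM in WT and 2.74 to 3.41 in Tal1-/-, and in Lmo2-/- it was at 6.51, 29.0 and 6.64. In the libraries labelled WT HE1 Lmo2 was at 4.30 and 20.6, and in those labelled Lmo2-/- HE1 at 6.42 and 0, so this gene does not separate them and the directions given for HE1 rest on the labels. The second Lmo2-/- HE1 library, numbered replicate 1, had 9694 genes above 0, against 11861 to 15641 in the other libraries, and it listed 191 of the 4079 genes whose median exceeded 10 FPKM at 0. The Tal1-/- libraries had 12768 to 13888 genes above 0 and the WT Flk-1+ libraries 14482 to 15358. The Lmo2-/- Flk-1+ libraries had 15025, 13345 and 15641, so replicate 1 lies within the Tal1-/- range. Of the 8 endothelial markers, Kdr (Flk-1), the gene of the sorted marker, was at 100.2 to 252 FPKM in WT, 101 to 151 in Lmo2-/- and 68.7 to 86.0 in Tal1-/- Flk-1+ cells. Tek (Tie2), Kit, Cdh5 and Pecam1 were called higher in HE1 than in Flk-1+ cells of both genotypes. These were 4 of 8, against 6.98 percent of all genes called in WT and 19.6 percent in Lmo2-/-. In each genotype 1 of the 8 was lower, with every HE1 library below every Flk-1+ library, and was not called. Emcn was listed at 0 in both Lmo2-/- HE1 libraries.

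Expression of the cardiac factors ranged widely within the same cells. Hand1 was the highest in Flk-1+ cells, with 86.8 ± 37.4 FPKM (SD, n = 3) in WT, followed by Tbx20 with 22.3 ± 7.17 (SD, n = 3). Hand2 was at 7.59 ± 2.98 (SD, n = 3) and Smarcd3 at 6.22 ± 1.61 (SD, n = 3). Mef2c, Myocd, Isl1 and Tbx5 had group means between 1.04 and 2.05 FPKM in WT. Nkx2-5, the homeodomain factor of committed cardiac cells, reached at most 0.399 FPKM in any library and was listed at 0 in all 3 Tal1-/- libraries. It did not pass the filter of 1 FPKM in 2 libraries, and 8 of the 9 genes were tested.

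**Figure D1:**
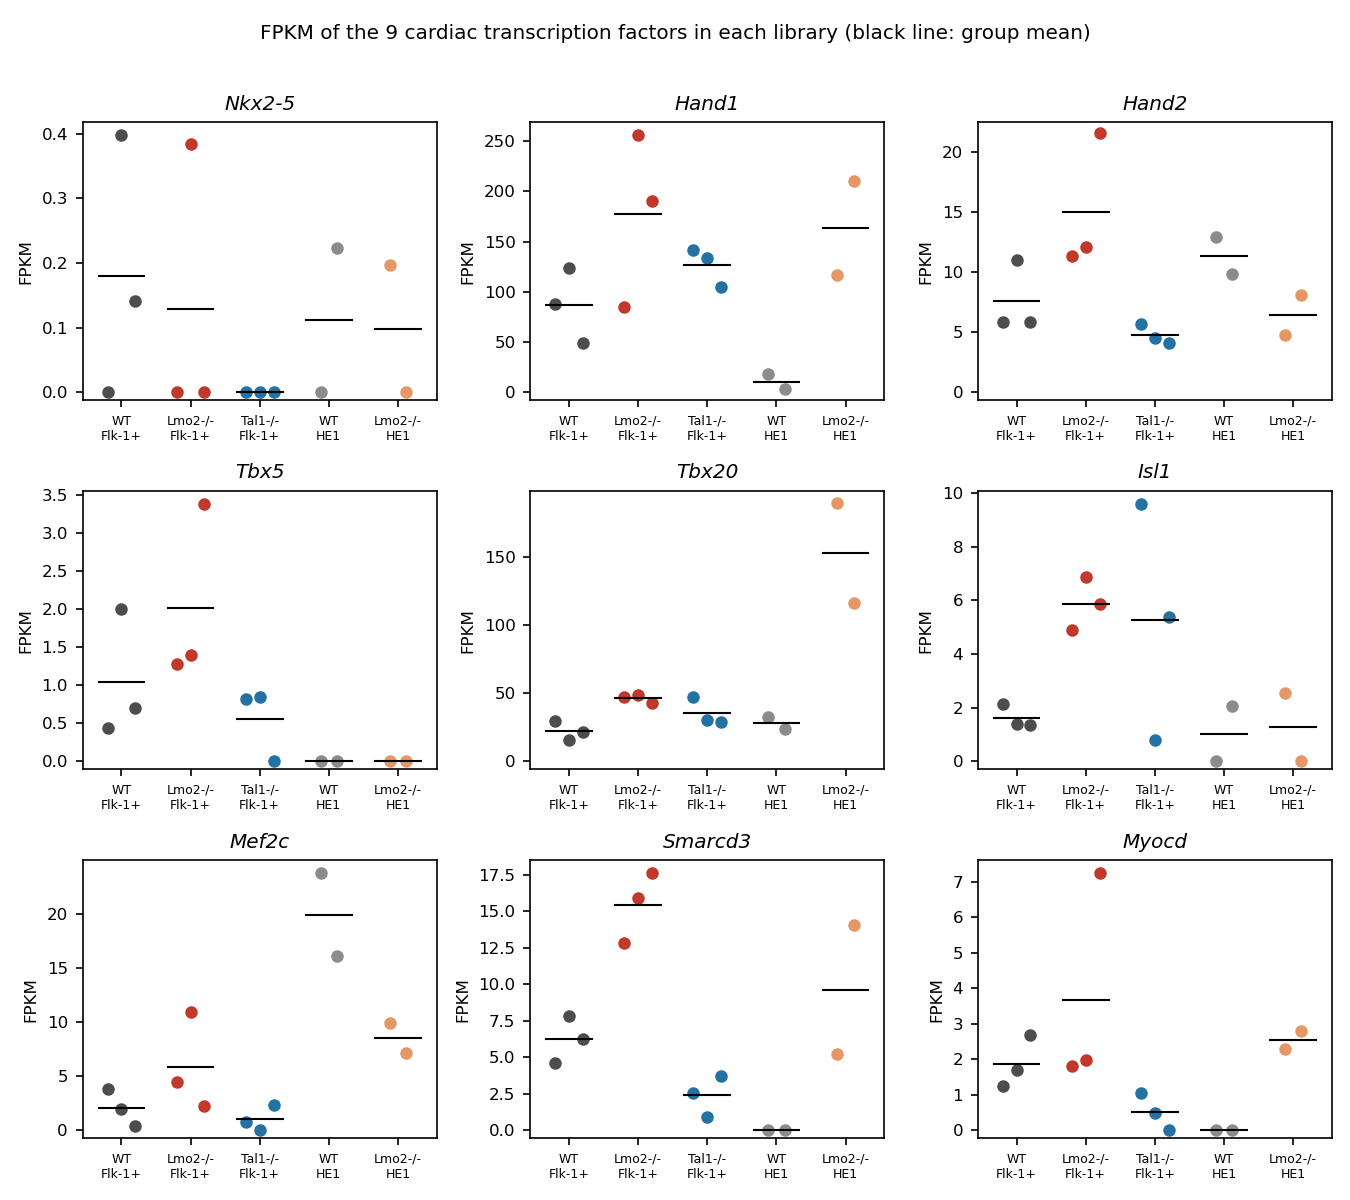
FPKM of each of the 9 cardiac transcription factors by library, with the 5 groups on the horizontal axis, FPKM on the vertical axis (own scale per gene), a point per library and a black line at the group mean. Smarcd3 separates all 3 Flk-1+ genotypes, Hand1 is low only in the WT HE1 libraries (2.96 and 17.7 FPKM), and Tbx20 is highest in Lmo2-/- HE1 (116 and 190.2 FPKM).

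The 8 tested cardiac factors were each higher on average in Lmo2-/- than in WT Flk-1+ cells, but none of these differences passed the test. Nkx2-5, not tested, was at 0, 0.399 and 0.141 FPKM in WT and at 0, 0.385 and 0 in Lmo2-/-. The 8 tested genes had a positive difference, with a median of 1.02 on the log2 scale, against -0.01 over all genes tested. Of the 13802 genes, 0.0 percent were called in this comparison by limma, while 307 had an unadjusted p below 0.05, 3 of them cardiac factors. The paper used another test, Cuffdiff, and did report genes that differed in this comparison. By gene ontology it described heart and muscle development genes as higher in Lmo2-/-. For 4 of the 8 genes (Hand2, Tbx20, Isl1 and Smarcd3) every Lmo2-/- library lay above every WT library, which was so for 3.99 percent of all genes tested. For each of these 4 the exact permutation test, two-sided, gave p = 0.10, the smallest that 3 against 3 libraries allow.

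After the loss of Tal1 the cardiac factors lay on both sides of WT. Relative to WT Flk-1+ cells 3 were higher (Hand1, Tbx20 and Isl1) and 5 lower (Hand2, Tbx5, Mef2c, Smarcd3 and Myocd), with a median difference of -0.45, against -0.01 over all genes tested. None was called, as for all genes (0.0 percent called by limma, and 843 genes with an unadjusted p below 0.05). In 3 of the 8, Hand2, Smarcd3 and Myocd, every Tal1-/- library lay below every WT library, against 7.4 percent of all genes tested. Both comparisons use the same WT libraries, and the direct comparison of the knock-outs shares its Lmo2-/- libraries with the first and its Tal1-/- libraries with the second. The signs of the 3 comparisons are therefore not independent of each other.

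Directly compared by the values per library, all 8 tested cardiac factors were lower in Tal1-/- than in Lmo2-/- Flk-1+ cells. Their median difference was -1.18, against -0.0044 over all genes tested. In the authors' pooled FPKM per group, Hand1 and Isl1 went the other way. There Hand1 was at 179.8 in Tal1-/- and 158.9 in Lmo2-/-, and Isl1 at 5.568 and 5.004. The other tested cardiac factors were lower in Tal1-/- by the pooled values too. No cardiac factor was called, and limma called 0.0145 percent of all genes, 2 in number. An unadjusted p below 0.05 was found for 5 of the 8 (Hand2, Tbx5, Mef2c, Smarcd3 and Myocd), and for 822 of all genes. The libraries did not overlap for Hand2, Tbx5, Smarcd3 and Myocd, 4 of 8, against 6.66 percent of all genes tested. The largest of these differences was that of Smarcd3, at -2.36 (95% interval -3.36 to -1.36, limma adjusted p = 0.225).

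**Figure D2:**
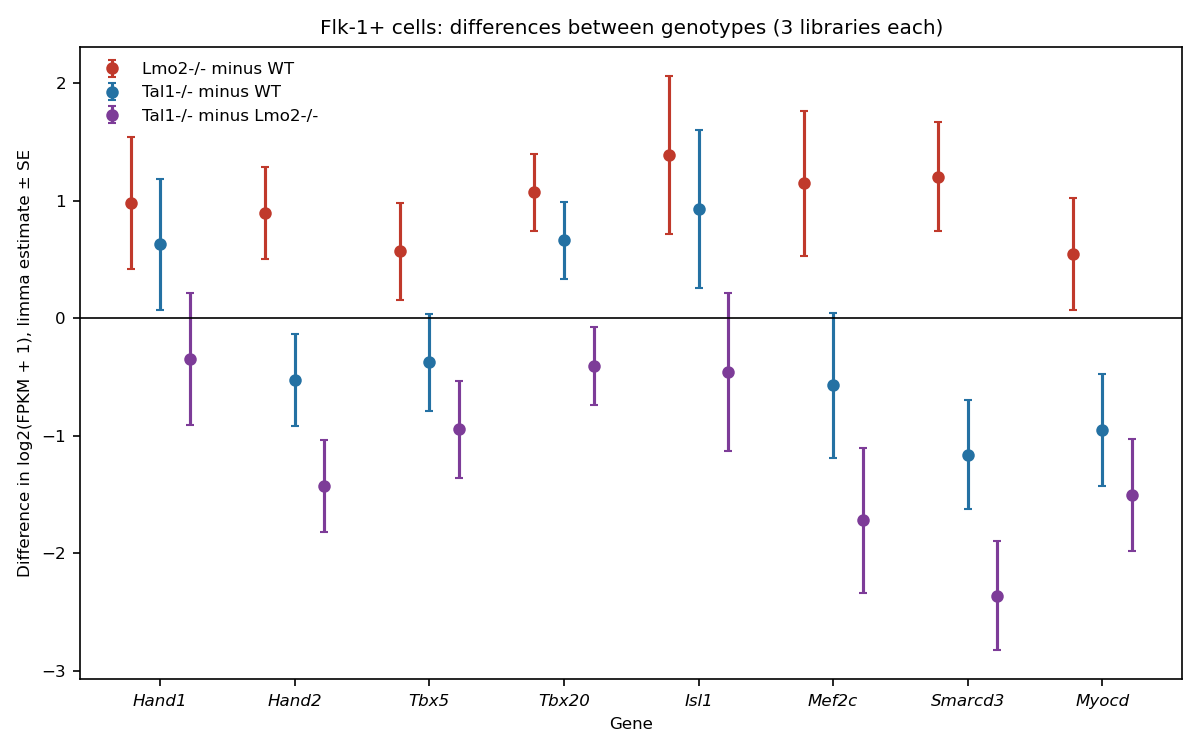
Differences between genotypes in Flk-1+ cells for the 8 tested cardiac factors, as limma estimates on the log2(FPKM + 1) scale with standard error bars and 3 libraries per genotype. Lmo2-/- minus WT (red) lies above 0 for all 8, with a median of 1.02, and Tal1-/- minus Lmo2-/- (purple) lies below 0 for all 8, with a median of -1.18.

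Smarcd3, the BAF subunit, showed the clearest order of genotypes. It was at 4.61, 7.82 and 6.22 FPKM in the WT libraries, at 12.8, 15.9 and 17.6 in Lmo2-/- and at 2.58, 0.903 and 3.71 in Tal1-/-. The 3 genotypes do not overlap, with Lmo2-/- on top and Tal1-/- at the bottom. The mean in Lmo2-/- was 2.48 times that in WT, a difference of 1.20 (SE 0.46, limma adjusted p = 1.00), and the mean in Tal1-/- was 0.386 times that in WT, a difference of -1.16 (SE 0.46, limma adjusted p = 0.757). Both have an unadjusted p below 0.05 and neither passed the adjustment. Smarcd1 and Smarcd2, the paralogues that can take its place in the complex, were at 15.9 to 34.5 and 5.89 to 9.52 FPKM in WT. Smarcd1 was at 18.6 to 29.4 FPKM in Lmo2-/- and 20.8 to 27.5 in Tal1-/-, within the WT range. Smarcd2 was at 10.8 to 15 FPKM in Lmo2-/-, above all WT libraries (difference 0.52, limma adjusted p = 1.00), and at 9.15 to 24.1 in Tal1-/-.

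Of the basic helix-loop-helix factors, Hand2, which is needed for the right ventricle, followed the same order as Smarcd3. It was at 5.84, 11 and 5.89 FPKM in WT, at 11.3, 12.1 and 21.7 in Lmo2-/- and at 5.72, 4.53 and 4.09 in Tal1-/-. The groups are separate, but only just, since the highest WT library lies close below the lowest Lmo2-/- library and the highest Tal1-/- library close below the lowest WT library. The difference between Tal1-/- and Lmo2-/- was -1.43 (SE 0.39, limma adjusted p = 0.528). Hand1, which acts in the extraembryonic mesoderm and the left ventricle, was at 87.9, 124 and 48.9 FPKM in WT, at 84.5, 257 and 191 in Lmo2-/- and at 142, 134 and 105 in Tal1-/-. All 3 genotypes overlap for Hand1, which was high in all of them, and the difference between Tal1-/- and Lmo2-/- was -0.35 (95% interval -1.56 to 0.86).

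Tbx20, a T-box factor of the early heart field, was the other strongly expressed gene. It was at 29.9, 15.6 and 21.5 FPKM in WT, at 47.6, 48.8 and 43.1 in Lmo2-/- and at 47.5, 30.5 and 28.9 in Tal1-/-. Every Lmo2-/- library lay above every WT library, and Tal1-/- fell between them, overlapping with both. Lmo2-/- was 2.08 times WT, a difference of 1.07 (SE 0.33, unadjusted p = 0.00621, limma adjusted p = 1.00), and Tal1-/- was 1.60 times WT, a difference of 0.66 (SE 0.33, limma adjusted p = 0.862). Tbx5, which patterns the left ventricle and atria, was low, at 0.433, 2.0 and 0.695 FPKM in WT, 1.27, 1.39 and 3.38 in Lmo2-/- and 0.817, 0.846 and 0 in Tal1-/-. WT overlapped with both knock-outs, while every Tal1-/- library was below every Lmo2-/- library.

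Isl1, the LIM-homeodomain factor, was higher in most knock-out libraries than in WT. It was at 2.12, 1.40 and 1.36 FPKM in WT, at 4.87, 6.85 and 5.87 in Lmo2-/- and at 9.59, 0.806 and 5.39 in Tal1-/-. All Lmo2-/- libraries were above WT, whereas 1 Tal1-/- library was below all WT libraries and the other 2 were above them. The difference between Lmo2-/- and WT was 1.39 (SE 0.67, limma adjusted p = 1.00) and that between Tal1-/- and WT was 0.93 (SE 0.67, limma adjusted p = 0.952). Mef2c was at 3.80, 2.0 and 0.349 FPKM in WT, at 4.44, 10.9 and 2.26 in Lmo2-/- and at 0.763, 0 and 2.36 in Tal1-/-, and all 3 genotypes overlap.

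Myocd was at 1.23, 1.68 and 2.68 FPKM in WT, at 1.82, 1.97 and 7.25 in Lmo2-/- and at 1.05, 0.486 and 0 in Tal1-/-. The WT and Lmo2-/- libraries overlap, with 1 high Lmo2-/- library, and every Tal1-/- library was below both. The difference between Tal1-/- and Lmo2-/- was -1.50 (SE 0.48, limma adjusted p = 0.646) and that between Tal1-/- and WT was -0.95 (SE 0.48, limma adjusted p = 0.864). The genes lower in Tal1-/- include the weakest ones, and the Tal1-/- libraries had fewer genes above 0 than WT, as given above, and the part of this in the result was not tested. Most endothelial markers were lower there too. The summed FPKM of the 8 markers was 86.1 to 102 in Tal1-/-, 122 to 278 in WT and 114 to 170 in Lmo2-/-, and most of it was Kdr. Of the 8 markers 5 to 6 were above 0 in Tal1-/- and 7 in the others, and Emcn was at 0 in all Flk-1+ libraries. Against WT 6 of the 8 were lower and 1 higher in Tal1-/-, 4 of all 8 with an unadjusted p below 0.05, and none was called. Every Tal1-/- library lay below every WT library in 3 markers and above in 1, against 1021 and 724 of all genes tested. Kdr differed by -0.88 (SE 0.34, limma adjusted p = 0.731), with every Tal1-/- library below every WT and Lmo2-/- library. The part of these markers in the lower values of the cardiac factors was not tested. Leaving out each of the 13 libraries in turn, the median of the 8 genes ran from 0.76 to 1.20 for Lmo2-/- against WT, from -0.57 to -0.16 for Tal1-/- against WT and from -1.35 to -0.82 for Tal1-/- against Lmo2-/-.

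The summed FPKM of 7 fibroblast markers was 6.50 to 14.3 in WT, 20.8 to 28.8 in Lmo2-/- and 22.1 to 35.7 in Tal1-/- Flk-1+ cells, so it was higher in both knock-outs. Between 3 and 6 of these markers were above 0 in a library, Postn was listed at 0 in all WT and Lmo2-/- Flk-1+ libraries, and Col3a1 in all WT Flk-1+ libraries. The part of these markers in the results was not tested.

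TAL1 complexes are known to bind E-boxes (here CAGNTG) next to GATA motifs (here GATAA), and the promoters of the 4 genes that were above WT in every Lmo2-/- Flk-1+ library are shown because they can be read for both. The RefSeq promoter table (GRCm38.p6) held 6 of the 9 genes, and Hand1, Tbx5 and Myocd were not matched. Each line gives the 250 bases before the start of transcription on the gene's own strand, 5′ to 3′, with matches on either strand in capitals. GATAA on the other strand reads TTATC, and CAGNTG covers CANCTG read from the other strand.
Smarcd3 (chr5:24602003-24602252, minus strand): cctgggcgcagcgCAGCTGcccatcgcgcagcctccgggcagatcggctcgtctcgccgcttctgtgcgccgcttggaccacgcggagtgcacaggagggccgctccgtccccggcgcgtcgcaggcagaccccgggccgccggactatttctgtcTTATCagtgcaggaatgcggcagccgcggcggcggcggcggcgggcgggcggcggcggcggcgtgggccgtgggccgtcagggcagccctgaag
Hand2 (chr8:57320733-57320982, plus strand): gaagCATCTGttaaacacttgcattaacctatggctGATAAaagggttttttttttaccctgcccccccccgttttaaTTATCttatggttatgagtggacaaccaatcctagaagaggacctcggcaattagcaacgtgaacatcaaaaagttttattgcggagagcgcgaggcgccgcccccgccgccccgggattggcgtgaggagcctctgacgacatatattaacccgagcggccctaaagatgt
Isl1 (chr13:116309689-116309938, minus strand): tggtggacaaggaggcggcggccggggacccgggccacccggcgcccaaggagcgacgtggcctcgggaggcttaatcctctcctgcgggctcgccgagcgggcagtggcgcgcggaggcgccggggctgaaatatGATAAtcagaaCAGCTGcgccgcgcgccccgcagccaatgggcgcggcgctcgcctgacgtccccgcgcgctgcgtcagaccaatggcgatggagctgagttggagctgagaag
Tbx20 (chr9:24774304-24774553, minus strand): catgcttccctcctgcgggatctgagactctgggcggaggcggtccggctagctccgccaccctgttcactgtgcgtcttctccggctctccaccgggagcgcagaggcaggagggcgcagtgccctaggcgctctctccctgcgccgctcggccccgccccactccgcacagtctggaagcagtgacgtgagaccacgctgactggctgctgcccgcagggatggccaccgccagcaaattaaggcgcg

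Smarcd3 and Isl1 each held 1 GATAA and 1 CAGNTG, Hand2 held 2 GATAA and 1 CAGNTG, and Tbx20 held neither. Of all 32851 promoters in the table, 22.6 percent held GATAA and 44.8 percent held CAGNTG in the same window. Such letter matches are a description and not evidence of binding. In the GENCODE M21 annotation of GRCm38, Smarcd3 spans chr5:24590818-24624411, so its RefSeq window lies within the gene, whereas Hand2 (chr8:57320983-57324633) and Tbx20 (chr9:24718138-24774303) lie directly downstream of theirs, and Isl1 (chr13:116298281-116309689) shares a single base with its window. The other genes lie at chr17:26838664-26845009 (Nkx2-5), chr11:57828705-57832818 (Hand1), chr5:119832668-119885219 (Tbx5), chr13:83504034-83667080 (Mef2c) and chr11:65176561-65269989 (Myocd).

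In HE1 Hand1 and Tbx20 were far higher in the libraries labelled Lmo2-/- than in those labelled WT, and these 2 of the 8 cardiac factors passed the test, against 3.01 percent of all genes. Hand1 was at 17.7 and 2.96 FPKM in WT HE1 and at 117 and 210.3 in Lmo2-/- HE1. Tbx20 was at 32.5 and 23.5 FPKM in WT HE1 and at 190.2 and 116 in Lmo2-/- HE1. For both genes each Lmo2-/- library was several times above each WT library. Hand1 differed by 4.20 (SE 0.69, limma adjusted p = 0.00524), with a mean 15.8 times that of WT, and Tbx20 by 2.39 (SE 0.40, limma adjusted p = 0.00678), with a mean 5.47 times that of WT. The median difference over all genes tested was 0.15 in this comparison, and 0.97 over the 8 cardiac factors. The calls are lost with array weights (limma adjusted p = 0.115 for Hand1 and 0.0805 for Tbx20) and with only the HE1 groups in the fit (0.404 and 0.301), where none of all genes is called, and that of Tbx20 with quantile normalization (0.0635). Leaving out a HE1 library leaves 1 library in its group, which is then assumed to vary like the other groups, so these p-values hold no replicate check of that group. Without the sparse Lmo2-/- library (replicate 1) Tbx20 differed by 2.74 (limma adjusted p = 0.0177) and Hand1 by 3.77 (limma adjusted p = 0.0523, no longer called). Without WT HE1 replicate 1, in which Hand1 was lowest, neither was called, with Hand1 at 3.08 (limma adjusted p = 0.0520) and Tbx20 at 2.16 (limma adjusted p = 0.0627).

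Smarcd3 and Myocd were listed at 0 in both WT HE1 libraries and were present in both Lmo2-/- HE1 libraries. Smarcd3 was at 5.20 and 14.1 FPKM in Lmo2-/- HE1, and Myocd at 2.29 and 2.80. The difference of Smarcd3 was 3.27 (SE 0.57, limma adjusted p = 0.00753), but its highest group mean of 9.64 FPKM was below the level asked of a call. Myocd differed by 1.82 (SE 0.58, limma adjusted p = 0.0958). Without the sparse Lmo2-/- library the adjusted p of Smarcd3 by limma was 0.0546.

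Mef2c and Hand2 went the other way in HE1, without passing the test. Mef2c was at 23.8 and 16.1 FPKM in WT HE1 and at 9.93 and 7.15 in Lmo2-/- HE1, a difference of -1.12 (SE 0.76, limma adjusted p = 0.425). Hand2 was at 12.9 and 9.86 FPKM in WT HE1 and at 4.80 and 8.15 in Lmo2-/- HE1, a difference of -0.75 (SE 0.48, limma adjusted p = 0.396). Both Lmo2-/- libraries were below both WT libraries for these genes. Over the 8 tested genes both Lmo2-/- libraries were above both WT libraries in 4 (Hand1, Tbx20, Smarcd3 and Myocd), against 25.9 percent of all genes tested, and below them in 2, against 13.8 percent. The exact permutation test, two-sided, cannot go below p = 0.333 with 2 against 2 libraries, which is what it gave for these 6 genes. Isl1 was at 0 and 2.04 FPKM in WT and 2.55 and 0 in Lmo2-/- HE1, and Tbx5 was listed at 0 in all 4 HE1 libraries.

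Markers of fibroblasts moved with Hand1 and Tbx20 in HE1. Their summed FPKM was 29.2 to 35.7 in WT HE1 and 177 to 762 in Lmo2-/- HE1, with 3 to 4 and 5 to 6 of the 7 markers above 0, and Postn, Col1a1 and Col3a1 rose by 3.53, 3.69 and 3.54 (limma adjusted p = 0.00842, 0.0172 and 0.009). Col3a1 shares its row in the table with another transcript. The same markers also rose from Flk-1+ cells to Lmo2-/- HE1, where Postn rose by 7.60 (limma adjusted p = 8.46e-06), and Postn rose in WT HE1 too, by 4.07 (limma adjusted p = 0.000655). Their part in the results for the cardiac factors was not tested.

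The step from Flk-1+ cells to HE1 was then compared within each genotype. In WT, Hand1 fell by 3.25 (SE 0.63, limma adjusted p = 0.00543), from a mean of 86.8 to 10.3 FPKM, and Mef2c rose by 2.94 (SE 0.69, limma adjusted p = 0.0168), from 2.05 to 19.9 FPKM. These 2 of 8 were called, against 6.98 percent of all genes, whose median difference was 0.11. Without WT HE1 replicate 1 neither was called (limma adjusted p = 0.0911 for Hand1 and 0.0721 for Mef2c), and Mef2c was not called without WT HE1 replicate 0 (0.158) or without WT Flk-1+ replicate 2 (0.0699). With only the groups compared in the fit neither was called (0.0670 for Hand1 and 0.0544 for Mef2c), and Mef2c was not called with a pseudocount of 0.1 (0.0867). Smarcd3 went from 4.61 to 7.82 FPKM in WT Flk-1+ cells to 0 in both WT HE1 libraries (difference -2.83, SE 0.52, limma adjusted p = 0.00392), below the FPKM level asked of a call. Tbx20 stayed between 15.6 and 32.5 FPKM at both WT stages, with overlapping libraries.

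In Lmo2-/- cells Tbx20 was called between the stages, 1 of 8, against 19.6 percent of all genes, whose median difference was 0.30. Tbx20 rose by 1.66 (SE 0.37, limma adjusted p = 0.00601), from a mean of 46.5 to 153 FPKM. With quantile normalization the difference was 0.63 (limma adjusted p = 0.376) and after rescaling to a common median 0.66 (limma adjusted p = 0.278), so this call depends on the scaling. Hand1 differed by -0.04 (95% interval -1.39 to 1.32) and its libraries overlap between the stages. Tbx5 went from 1.27 to 3.38 FPKM to 0 in both libraries (difference -1.53, SE 0.46, limma adjusted p = 0.0279), again below the FPKM level asked of a call. Isl1 and Hand2 were lower in both Lmo2-/- HE1 libraries than in all Lmo2-/- Flk-1+ libraries, with differences of -1.86 (SE 0.75, limma adjusted p = 0.0878) and -1.08 (SE 0.44, limma adjusted p = 0.0869). With Tbx5 such a fall without overlap was seen in 3 of 8, against 2084 of all 13802 genes. A rise without overlap was seen in 1 of 8, Tbx20, against 4401 of all genes. Isl1 was at 2.55 FPKM in Lmo2-/- HE1 replicate 0 and listed at 0 in replicate 1, the sparse library.

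**Figure D3:**
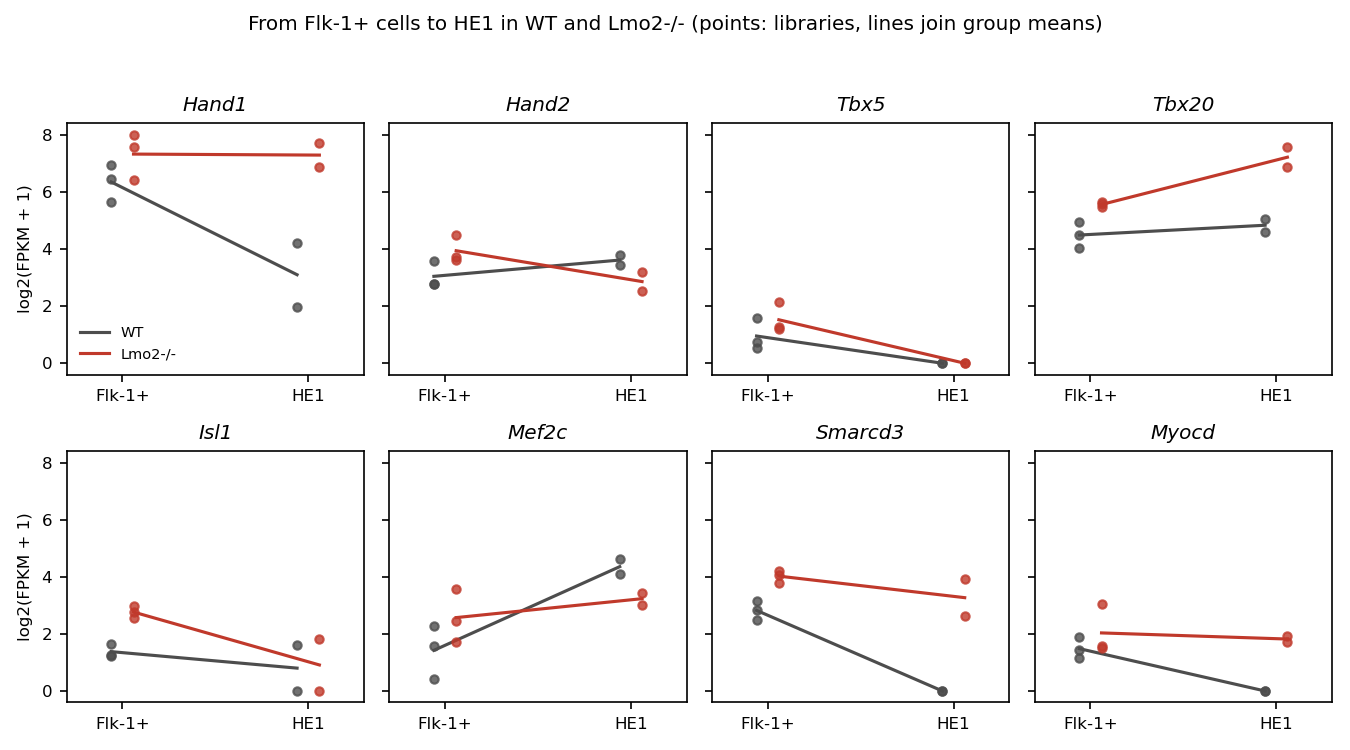
Expression of the 8 tested cardiac factors in Flk-1+ cells and HE1 of WT (grey) and Lmo2-/- (red), as log2(FPKM + 1) on the vertical axis, with a point per library and lines between group means. Hand1 drops in WT (difference -3.25) and differs by -0.04 in Lmo2-/-, with an interaction that did not pass the test, Mef2c rises in WT by 2.94, and the lines of Hand2 cross, with an interaction of -1.65.

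The interaction of genotype and stage tests whether the step from Flk-1+ cells to HE1 itself differed between WT and Lmo2-/-. No cardiac factor was called, against 0.348 percent of all genes, which were 48 in number. The interaction of Hand1 was 3.22 (95% interval 1.31 to 5.13, limma adjusted p = 0.147), that of Smarcd3 was 2.07 (95% interval 0.49 to 3.65, limma adjusted p = 0.265) and that of Tbx20 was 1.31 (95% interval 0.19 to 2.44, limma adjusted p = 0.322). Mef2c and Hand2 had interactions of -2.27 (limma adjusted p = 0.366) and -1.65 (limma adjusted p = 0.295). These 5 genes had an unadjusted p below 0.05, as had 1672 of all genes tested. A difference between the genotypes in the fall of Hand1 or in the rise of Mef2c and Tbx20 is thus not shown at the adjusted level. Without Lmo2-/- HE1 replicate 0, which leaves the sparse library as the only one of its group, Hand1 and Smarcd3 were called, with interactions of 3.64 and 2.71 (limma adjusted p = 0.0389 and 0.0319).

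Across the 13 libraries the cardiac factors were only loosely alike. The 28 pairs of the 8 tested genes had a median Pearson r of 0.32 on log2(FPKM + 1), from -0.44 to 0.84, and 8 pairs were negative. Smarcd3 and Myocd were the pair most alike, with r = 0.84, and Mef2c had negative values with Hand1, Tbx5, Isl1, Smarcd3 and Myocd. Within the 9 Flk-1+ libraries the median was 0.45 and no pair was below 0, with Hand2 and Tbx5 the most alike, at r = 0.91. The libraries share their groups and depth, so these values describe the libraries and carry no test.

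**Figure D4:**
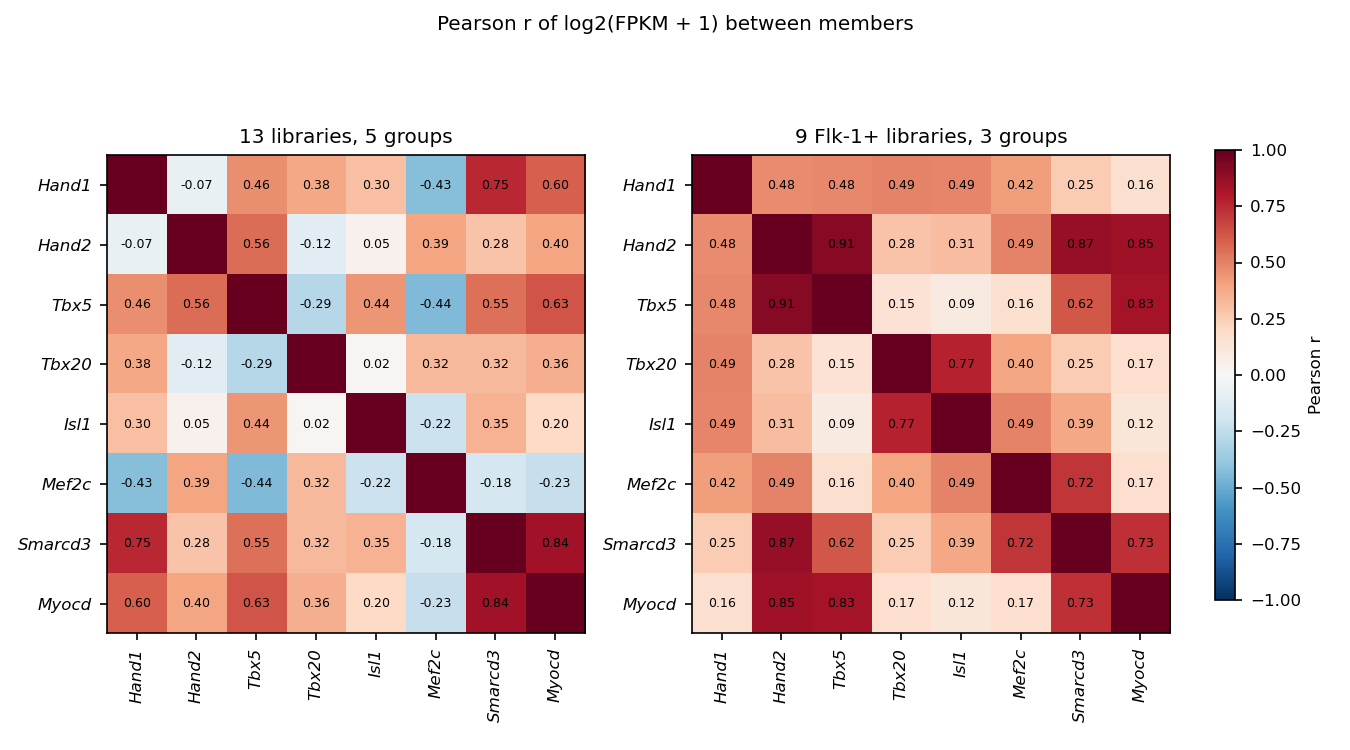
Pearson r of log2(FPKM + 1) between the 8 tested cardiac factors, over all 13 libraries (left) and over the 9 Flk-1+ libraries (right), on a colour scale from -1 to 1 with each value printed. With the HE1 libraries included 8 of the 28 pairs are below 0, and among Flk-1+ libraries none is.

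Among all tested genes, those most like Hand1 were Fbln2 (r = 0.96), Gys1 (r = 0.94) and Tceb2 (r = 0.91), and those most like Tbx20 were Kdm5b (r = 0.95), Ptch1 (r = 0.93) and Cep295 (r = 0.91). Smarcd3 was most like Arhgef25 (r = 0.93), Gm38317 (r = 0.91) and Gm10146 (r = 0.89), and Myocd most like Smarcd3 itself, Arhgef25 (r = 0.83) and Stard10 (r = 0.83). Mef2c was most like Aff2 (r = 0.93), Keap1 (r = 0.93) and Pvr (r = 0.92). For Hand2 these were Fahd2a (r = 0.86), Dgka (r = 0.78) and Stx16 (r = 0.78), and for Isl1 Bloc1s3 (r = 0.87), Aplp1 (r = 0.85) and Nfatc4 (r = 0.85). Tbx5 was most like Arl2 (r = 0.92), the joint row of Rpl12 and Snora65 (r = 0.90) and Cacna2d2 (r = 0.90).

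Other regulators of heart development differed less between the genotypes by their medians, and no test compared them with the cardiac factors. Of 27 such genes, 19 were tested, and none was called in Flk-1+ cells. Against WT, 14 were higher and 5 lower in Lmo2-/- (median 0.14), and 6 higher and 13 lower in Tal1-/- (median -0.30). In Tal1-/- against Lmo2-/-, 6 were higher and 13 lower (median -0.53). Gata5, a GATA factor of the endocardium, was at 0.413 to 2.53 FPKM in Lmo2-/- and listed at 0 in all Tal1-/- libraries (difference -1.32, limma adjusted p = 0.561). Tbx2, which represses chamber genes, was at 5.69 to 9.70 FPKM in Lmo2-/- and 1.29 to 4.43 in Tal1-/- (difference -1.35, limma adjusted p = 0.767), and at 1.37 to 3.10 in WT. In HE1 none of these regulators was called between the genotypes. Between the stages Mef2a rose in both, by 1.99 in WT (limma adjusted p = 0.00386) and by 1.72 in Lmo2-/- (limma adjusted p = 0.0046), and Tbx3 fell by 1.29 in Lmo2-/- (limma adjusted p = 0.0307).

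The contractile genes of heart muscle, targets of the cardiac factors, had a summed level of 94.0 to 157 FPKM in WT, 96.6 to 151 in Lmo2-/- and 57.9 to 75.1 in Tal1-/- Flk-1+ cells. Most of this sum was Tpm1, a tropomyosin that many cell types express, with means of 100.7, 89.8 and 48.4 FPKM, while Myh6, Myh7, Myl2 and Nppa had means of at most 0.175 FPKM in Flk-1+ cells. Other contractile genes were expressed there, in WT, Lmo2-/- and Tal1-/- in turn. Myl7 had means of 9.09, 13.5 and 7.04 FPKM, Actc1 of 3.62, 2.47 and 5.05, and Tnnt2 of 0.466, 3.94 and 0.201. Of 22 such genes 13 were tested, and Nppa was listed at 0 in all but 1 library. None was called between genotypes. In Tal1-/- against Lmo2-/- Flk-1+ cells 12 of 13 were lower (median -0.84, and 1 higher), with Myl4, the atrial light chain, at 2.83 to 5.51 FPKM in Lmo2-/- and 0 to 1.39 in Tal1-/- (difference -1.94, limma adjusted p = 0.293). In Lmo2-/- against WT Flk-1+ cells 7 were higher and 6 lower (median 0.20). Every Lmo2-/- library lay above every WT library in 2 of the 13, against 3.99 percent of all genes tested, and below in none. These were Myl4, at 1.26 to 2.53 FPKM in WT, and Ryr2, at 0.245 to 0.435 in WT and 1.05 to 1.44 in Lmo2-/-. Ryr2, the calcium release channel of heart muscle, was at 0 to 0.0739 FPKM in WT HE1 and 3.40 to 7.70 in Lmo2-/- HE1 (difference 2.58, SE 0.44, limma adjusted p = 0.00678), below the FPKM level asked of a call. Tnni3, whose row also holds Dnaaf3 and is uncertain, was listed at 0 in both WT HE1 libraries and at 0.521 and 44.1 FPKM in Lmo2-/- HE1 (difference 3.05, limma adjusted p = 0.166). Myl7 fell by 2.92 from Flk-1+ cells to HE1 in Lmo2-/- (limma adjusted p = 0.00676) and was listed at 0 in both WT HE1 libraries.

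Smooth muscle genes, which myocardin and SRF also act on, were lower in Tal1-/- Flk-1+ cells without passing the test, and rose in part between the stages. Of 10 genes 7 were tested. Their summed FPKM was 64.6 to 105 in WT, 62.3 to 93.8 in Lmo2-/- and 30.1 to 57.1 in Tal1-/- Flk-1+ cells, and the Tal1-/- libraries do not overlap with the others. Most of this sum was Cald1, with means of 56.9, 54.9 and 35.6 FPKM. Cald1 itself overlapped, at 38.3 to 81.6 FPKM in WT, 45.6 to 68.1 in Lmo2-/- and 18.7 to 50.7 in Tal1-/-. In Tal1-/- all 7 tested genes were lower than in WT (median -0.70, 3 with an unadjusted p below 0.05) and 6 of 7 lower than in Lmo2-/- (median -0.76), and none was called. Tagln, the SRF target transgelin, was at 2.98 to 7.52 FPKM in WT and 0 to 1.33 in Tal1-/- (difference -1.98, limma adjusted p = 0.368). In Lmo2-/- against WT 2 were higher and 5 lower (median -0.17). Acta2 rose by 6.44 in WT and by 8.16 in Lmo2-/- from Flk-1+ cells to HE1 (limma adjusted p = 1.38e-05 and 3.27e-06), and Tagln by 3.34 and 3.68 (limma adjusted p = 0.00224 and 0.000754). Cald1 and Smtn also rose in Lmo2-/-, by 2.29 and 2.02 (limma adjusted p = 0.00268 and 0.0229). Called were thus 2 of 7 in WT and 4 of 7 in Lmo2-/-, against 6.98 and 19.6 percent of all genes. With quantile normalization 2 of the smooth muscle genes were called between the Lmo2-/- stages. None was called between the HE1 genotypes, where the summed FPKM of the list was 348 to 404 in WT and 567 to 1223 in Lmo2-/-. Myocd was listed at 0 in the same WT HE1 libraries in which Acta2 was at 114 to 165 FPKM, and a relation between these genes was not tested. Those libraries also listed 59 and 34 of the 4079 genes whose median exceeded 10 FPKM at 0.

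The other subunits of the BAF complex had medians near 0 in Flk-1+ cells. All 17 were tested and none was called. In Lmo2-/- against WT 6 were higher and 11 lower (median -0.09), and in Tal1-/- against Lmo2-/- 10 were higher and 7 lower (median 0.08). In HE1 Smarca2, an ATPase of the complex, was at 12.5 to 25.4 FPKM in WT and 114 to 311 in Lmo2-/-, and it rose by 3.33 (SE 0.59, limma adjusted p = 0.00826). It was the only subunit called in that comparison, against 3.01 percent of all genes. Of the 17, 14 were higher and 3 lower (median 0.70), against 7597 and 5316 of all 13802 genes (median 0.15). With only the HE1 groups in the fit none of all genes is called. The summed FPKM of the subunits was 725 and 556 in WT HE1. In Lmo2-/- HE1 it was 965 in replicate 0 and 1656 in replicate 1, the sparse library. From Flk-1+ cells to HE1 in Lmo2-/-, 5 subunits were called higher and 1 lower, against 19.6 percent of all genes. Smarca2 came first, with a rise of 3.71 (limma adjusted p = 0.000554), then Pbrm1, with 2.14 (limma adjusted p = 0.00127). No subunit was called between the WT stages, against 6.98 percent of all genes.

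**Figure D5:**
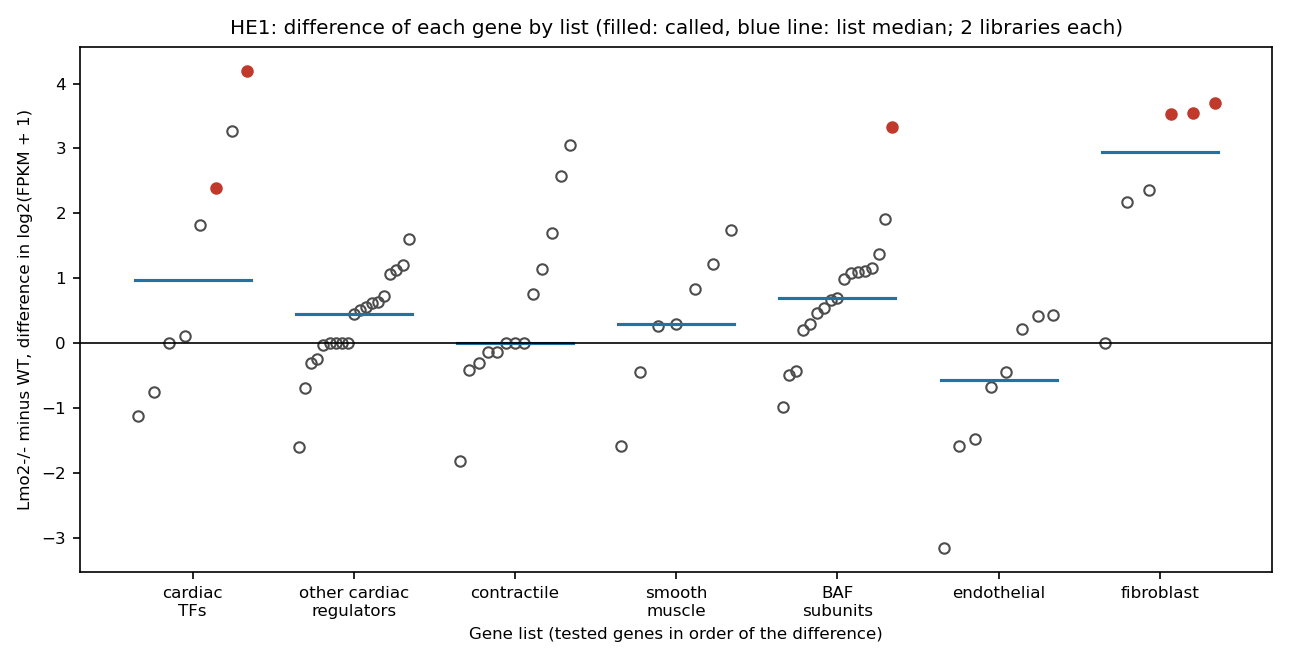
Lmo2-/- minus WT in HE1 for each tested gene by gene list, as the limma difference on the log2(FPKM + 1) scale on the vertical axis, with called genes filled red, other genes open and the list median in blue (2 libraries per genotype). Hand1 (4.20) and Tbx20 (2.39) are the called cardiac factors, Smarca2 (3.33) the called BAF subunit, and 3 fibroblast markers are called, while no other cardiac regulator and no contractile or smooth muscle gene is.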

How the data were processed

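RNAseq was measured in 13 libraries of mouse ES-derived cells. Per the paper and the submitters' processing notes, reads were aligned with TopHat2 2.0.9 and quantified with Cufflinks 2.0.0 and Cuffdiff 2.0.1. The authors deposited 1 table of FPKM per library and gene, labelled as from Cuffnorm, which the supplement names for FPKM normalisation. A separate table, labelled as from Cuffdiff, holds pooled FPKM per group. The latter table also holds Cuffdiff p-values, q-values and log2 fold changes for pairs of conditions, which were not used. No column of library values was left out (0). The paper gives a minimum of reads per library but no count per library or gene, so no interval for counting error is given.

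Groups follow the sample labels, and each library was matched to its group by column name. Genes with a locus over 200 bp and at least 1 FPKM in 2 or more of the 13 libraries were kept (13802 of 45250). log2(FPKM + 1) was fitted with limma 3.58.1 in R 4.3.3, with 1 mean per group over all 13 libraries, a trended prior and Benjamini-Hochberg adjustment over all tested genes. Genes were called at an adjusted p below 0.05 where at least 1 of the groups averaged over 10 FPKM. The fit was tested on simulated data. Single genes were also compared by exact permutation of libraries with scipy 1.17.1. Alternatives were a pseudocount of 0.1, other filters, quantile normalization, rescaling to a common median, array weights, no mean-variance trend, a fit of only the groups compared, a replicate block and leaving out each library.

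The members and gene lists were chosen with earlier results of these data known, and support nothing by their choice. Named were the 9 members, Lmo2 and Tal1, and from each other list up to 4 called genes with the largest difference in a comparison or, where none was called, up to 2 with the largest difference whose libraries did not overlap, and the 3 genes with the highest Pearson r to each member. Smarcd1, Smarcd2, Kdr, Myh6, Myh7, Myl2, Nppa, Actc1 and Tnnt2 were named after their values were seen. Positions are from GENCODE M21 (GRCm38) and promoters from RefSeq (GRCm38.p6), with motifs searched on both strands.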

Additional observations from a re-analysis of the deposited data

Results flagged for a closer look

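Smarcd3 lay in opposite directions in the knock-outs, since every Lmo2-/- Flk-1+ library was above and every Tal1-/- library below every WT library. The difference between Tal1-/- and Lmo2-/- was -2.36 on the log2 scale (SE 0.46, limma adjusted p = 0.225), which did not pass the test. Hand2 did the same, with a difference of -1.43 (SE 0.39, limma adjusted p = 0.528). Both comparisons with WT use the same 3 WT libraries. Of all genes tested, 3.99 percent had every Lmo2-/- Flk-1+ library above every WT library. For 7.4 percent every Tal1-/- library was below every WT library. The share of all genes with both patterns was not counted. Hand2 also lay in opposite directions at the 2 stages, above WT in every Lmo2-/- Flk-1+ library and below WT in both Lmo2-/- HE1 libraries, with an interaction of -1.65 (SE 0.62, limma adjusted p = 0.295). In HE1, 13.8 percent of all genes tested had both Lmo2-/- libraries below both WT libraries. The share of all genes that turned direction between the stages in this way was not counted.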

How the results depend on the processing

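Leaving out each library in turn, the count of cardiac factors called ran from 0 to 3 for Lmo2-/- against WT in HE1, 0 to 2 for the WT stages, 1 to 1 for the Lmo2-/- stages and 0 to 2 for the interaction. For HE1 it was 1 with quantile normalization, 0 with only the groups compared in the fit and 0 with array weights. For the WT stages it was 1 with a pseudocount of 0.1 and 0 with only the groups compared. For the Lmo2-/- stages it was 2 without the FPKM criterion, 2 after rescaling to a common median and 0 with array weights. The interaction gained 1 with a pseudocount of 0.1 (Smarcd3), and Tal1-/- against Lmo2-/- in Flk-1+ cells gained 1 with array weights (Smarcd3, limma adjusted p = 0.0486).

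Small differences turned direction. With array weights Hand1 between the Lmo2-/- stages was 0.043 and Mef2c in Tal1-/- against WT 0.017. After rescaling, Mef2c between the Lmo2-/- stages was -0.19 and Tbx20 between the WT stages -0.14, as with quantile normalization (-0.14). With a filter of FPKM 10 the median of the WT stages was 0.34. Leaving out libraries, Hand1 ran from -0.49 to 0.39 and Myocd from -0.49 to 0.29 between the Lmo2-/- stages, and Isl1 from -1.38 to 0.22 between the WT stages, from -0.80 to 1.03 in Lmo2-/- against WT HE1 and from -1.0 to 0.27 in Tal1-/- against Lmo2-/-. The causes were not tested.

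All genes called ran from 0 (only the groups compared) to 2177 (without Lmo2-/- HE1 replicate 0) in HE1, from 323 to 1682 for the WT stages, 976 to 3836 for the Lmo2-/- stages, 0 to 1150 for the interaction, 0 to 2 for Lmo2-/- and 0 to 15 for Tal1-/- against WT in Flk-1+ cells, and 0 to 8 between the knock-outs. The replicate block changed no count of cardiac factors called, with 2 in HE1 and 0 between Tal1-/- and Lmo2-/-. Same-numbered libraries did not deviate together (r from -0.184 to 0.169), so the numbers were not taken as pairs. With 2 or 3 libraries per group and no fragment counts per gene, weakly expressed genes such as Nkx2-5 and Tbx5 are the least certain.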
